A study of Rattus rattus with 12 samples.

Results

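Perigonadal fat collected 1 day after slurry injection was compared with untreated control adipose tissue in 6 of the 12 RNA-seq libraries of the series, 3 at day 1 and 3 untreated controls, with the libraries assigned by their titles. Of the 46726 transcripts listed, 24755 (53.0%) had an estimated count of at least 10 in 3 or more of these 6 libraries and were tested. Of the rest, 11684 were at 0 in all 6 libraries and 10287 had reads but fewer than 3 libraries with 10 counts.

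All libraries came from adult male Sprague-Dawley rats, obtained at 200 g and 8 weeks of age and then fed a diet with 60 kcal% fat over 9 weeks before treatment and afterwards. Slurry, an injectable suspension of ice in saline and glycerol, was given as 10 ml into the perigonadal fat of one side through an incision in the abdomen, and day 1 tissue was taken from the treated fat. According to the study's methods the untreated side served as control, and the labels do not link a control library to an animal. The libraries include none labelled as sham treated, so the effects of surgery, injected volume and cold cannot be told apart. The methods state biologic replicates for each condition without saying whether conditions share animals, and the labels give no batches.

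Perigonadal fat is a visceral depot made of adipocytes that store triglyceride, together with immune, vascular, stromal and mesothelial cells. Adipocytes are injured by cooling that spares neighbouring water-rich cells, and their loss is followed by inflammation and repair. In such bulk tissue, fewer cells of a type and less RNA per cell cannot be told apart. The deposited tables list Ensembl transcripts without gene names, and 0 of the 46726 identifiers were found in the gene table at hand, which is of an assembly of Rattus rattus, so adipocyte and immune cell markers could not be checked and transcripts are described by abundance, length and, for 4 of them, identifier.

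The comparison asks which transcripts had changed 1 day after injection. The day 1 libraries did not depart from the controls to the same extent. On average over the controls, replicates 1 and 3 lay further from them in median difference than the controls lay from each other, and replicate 2 did not. The departure of replicates 1 and 3 was largest, relative to the controls' own spread, among transcripts of at least 100 TPM (read counts scaled for transcript length and depth), where 105 transcripts were more than 2-fold below the lowest control in both libraries. Transcript by transcript, 1 passed the thresholds of an adjusted p under 0.05 and more than 2-fold change in edgeR's quasi-likelihood test.

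The total estimated count was 22715819, 26559350 and 25874329 in untreated control replicates 1 to 3, and 25598337, 23009910 and 20466915 in day 1 replicates 1 to 3. The depths overlapped between the groups, and day 1 replicate 3 was the shallowest library. In each library at least 99.6% of the counts fell in the tested transcripts. The number of tested transcripts at 0 was 1466, 988 and 990 in the controls and 1206, 1120 and 1168 at day 1, so that control replicate 1 lacked the most.

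The 10 most abundant transcripts of each library held 18.5%, 19.2% and 15.6% of TPM in the controls and 13.7%, 15.2% and 12.8% at day 1. Every day 1 library was below every control in this share, with means of 17.8% ± 1.91 and 13.9% ± 1.22 (SD, n = 3). With 3 libraries a group, the smallest p that exact permutation allows is 0.1. The 100 most abundant transcripts held 40.4%, 38.7% and 35.1% in the controls and 33.9%, 36.1% and 31.6% at day 1, where day 1 replicate 2 lay above control replicate 3.

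These shares enter the scaling of all other transcripts. With edgeR's TMM factors, which were 0.893, 0.990 and 0.989 in the controls and 1.07, 0.972 and 1.10 at day 1, the median difference between the groups over all tested transcripts was 0.02 on the log2 scale. With library totals alone it was 0.15 higher at day 1. CPM values are counts scaled by library size and TMM factor, without regard to length, and log2 CPM includes a prior count of 2. Where CPM values or log2 differences are given beside those of day 3 and day 14, the TMM factors were computed over all 12 libraries and differ slightly from these.

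The median absolute difference in log2 CPM between 2 libraries, over all tested transcripts, was 0.42 ± 0.05 for pairs of controls (SD, 3 pairs, range 0.39 to 0.48). Between a day 1 and a control library, called mixed pairs here, it was 0.50 ± 0.12 (9 pairs, range 0.32 to 0.70), and between 2 day 1 libraries 0.52 ± 0.05 (3 pairs, range 0.48 to 0.57). The day 1 libraries thus differed from one another about as much as from the controls, and the range of the mixed pairs covered that of the control pairs. Pairs share libraries and are not independent, so this difference was not tested.

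The mixed pairs varied with the day 1 library and with the control. For day 1 replicate 3 alone they ran from 0.45 with control replicate 3 to 0.70 with control replicate 1. The mean of the median difference from the day 1 libraries was 0.60, 0.46 and 0.46 for control replicates 1 to 3. The mean of the median difference from the 3 controls was 0.56 for day 1 replicate 1, 0.39 for replicate 2 and 0.56 for replicate 3. Relative to the pairs of controls this was 1.33 times, 0.928 times and 1.34 times. On average replicate 2 was therefore as near to the controls as they were to each other, day 1 replicate 3 differed from control replicate 3 by 0.45, which is within the range of the control pairs, and the closest pair among all 6 libraries was day 1 replicate 2 with control replicate 2, at 0.32. Replicate 2 was further from the other day 1 libraries, at 0.54, than from the controls. The study reports that a principal component analysis grouped its libraries by day after injection. Whether the library labelled day 1 replicate 2 came from tissue that the slurry reached, or belongs to another group, was not tested, and the group means, calls and overlap counts given here include it.

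The root mean square difference in log2 CPM, in which a few large differences weigh more, separated the kinds of pair less over the tested transcripts. It was 1.63 ± 0.09 for pairs of controls, 1.73 ± 0.17 for mixed pairs and 1.71 ± 0.07 for pairs of day 1 libraries. Mixed pairs were thus at 1.06 times control pairs, beside 1.20 times for the median difference. With at least 10 counts in each library both ratios were 1.22. The mean distance from the controls was 1.79, 1.60 and 1.81 for day 1 replicates 1 to 3. By this distance the nearest library of day 1 replicate 1 was day 1 replicate 3, that of day 1 replicate 2 was control replicate 2, and that of day 1 replicate 3 was control replicate 3. Control replicates 2 and 3 were both nearest to day 1 replicate 2.

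A share of these distances came from transcripts that were on and off within a group, having 3 counts or fewer in one library while another of their group had 100 or more. There were 1077 of them among the controls and 1096 at day 1, and 1762 (7.12% of those tested) in either group. Salmon, the program that assigned the reads, divides those shared by transcripts of a gene among them, and the part of this division was not tested. Without these transcripts the root mean square difference was 1.15 for pairs of controls and 1.34 for mixed pairs.

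The abundance of the transcripts gives another view of the same libraries. The share of TPM that would have to move from some transcripts to others to make 2 libraries equal was 11.8% ± 1.19 for pairs of controls, 18.3% ± 5.95 for mixed pairs and 17.3% ± 4.12 for pairs of day 1 libraries. From the controls it was 21.9% for day 1 replicate 1, 11.6% for replicate 2 and 21.5% for replicate 3. Replicates 1 and 3 thus stood out more on this measure than on the median difference, and replicate 2 was within the range of the control pairs.

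The tested transcripts were divided by mean TPM over the 6 libraries into 4013 under 1 TPM, 10842 from 1 to 10, 8525 from 10 to 100, 1259 from 100 to 1000 and 116 of at least 1000. These classes held 0.218%, 4.55%, 25.7%, 32.5% and 36.8% of TPM. The most abundant class was also the shortest, with a median length of 764.5 bases against 2634 over all tested transcripts.

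For pairs of controls, the median absolute log2 difference fell from 0.99 under 1 TPM to 0.56, 0.26, 0.22 and 0.18 in the classes above. For mixed pairs it was 1.07, 0.62, 0.33, 0.36 and 0.31. The value under 1 TPM depended on the filter and the scale, being 0.71 with no filter beyond 1 count, 0.58 with at least 10 counts in each library and 0.32 on log2(TPM + 1), where the classes above had 0.49, 0.36, 0.37 and 0.36 and the lowest class was thus the lowest value. The mixed pairs exceeded the control pairs by little in the low classes and by more in the high ones, while their ranges overlapped in every class. In the highest class the pairs of controls lay between 0.11 and 0.23, and the mixed pairs between 0.14 and 0.42. Pairs of day 1 libraries differed by 0.36 there, which was more than the mixed pairs.

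**Figure D1:**
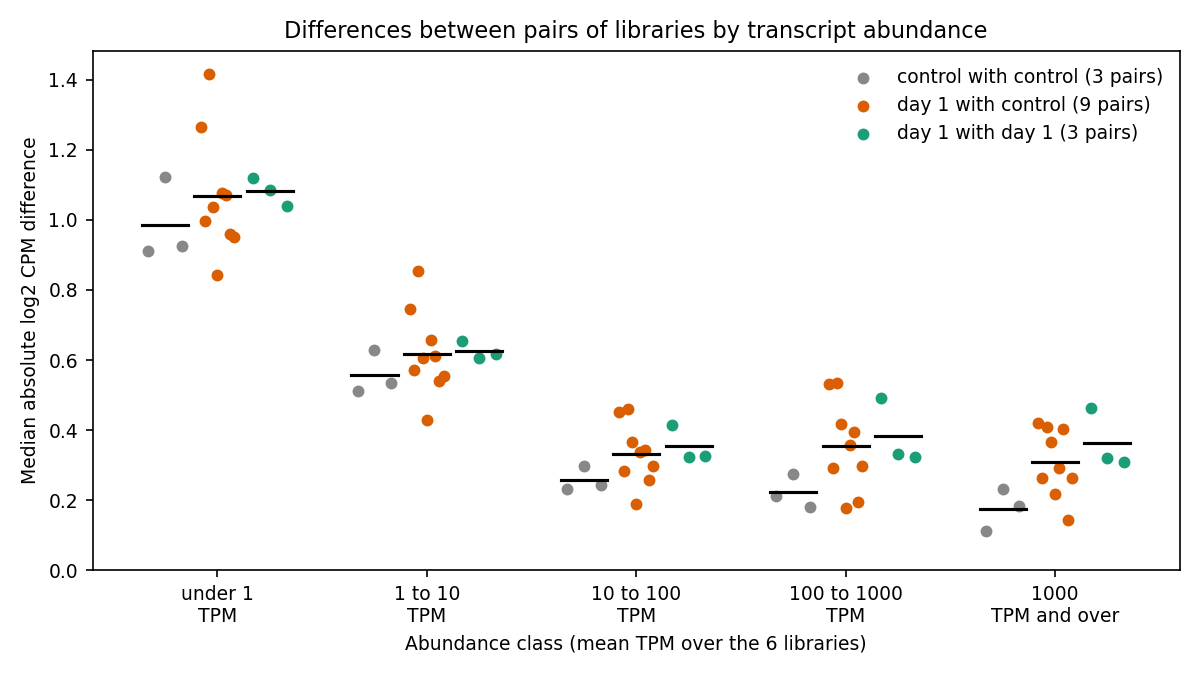
Median absolute log2 CPM difference (vertical axis) between pairs of libraries in 5 classes of mean TPM (horizontal axis); each point is a pair of libraries and black lines are the means of 3 control pairs, 9 mixed pairs and 3 day 1 pairs. In the means, control pairs differ less in each higher class, and mixed and day 1 pairs no less from 100 to 1000 TPM than from 10 to 100. Some single pairs depart from this. The mean of mixed pairs is 1.07 against 0.99 for control pairs under 1 TPM and 0.31 against 0.18 at 1000 TPM and over.

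By library, transcripts from 100 to 1000 TPM differed from the controls by a median of 0.45 in day 1 replicate 1, 0.22 in replicate 2 and 0.40 in replicate 3. At 1000 TPM and over the medians were 0.40, 0.21 and 0.32, and the controls differed from each other by 0.17, 0.15 and 0.21. Replicate 2 had the value of a control in both classes. Under 1 TPM the medians of 1.12, 0.93 and 1.15 were close to the 1.02, 0.92 and 1.02 of the controls.

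The spread within a group was also larger at low abundance. The median SD of log2 CPM was 0.96 in the controls and 1.05 at day 1 under 1 TPM, 0.22 and 0.30 from 10 to 100 TPM, and 0.16 and 0.27 at 1000 TPM and over. In each of the 5 classes it was larger at day 1 than in the controls.

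The mean log2 CPM of the groups differed by more than 2-fold in 5159 transcripts, which is 20.8% of those tested, with 2420 higher and 2739 lower at day 1. With library totals in place of TMM the balance turned, to 2830 higher and 2441 lower, and on log2(TPM + 1), which compresses low values, there were 1012 higher and 891 lower. The groups of 24.5% of these 5159 did not overlap, and 26.5% were on and off within a group. Of all tested transcripts, 6.77% did not overlap as higher at day 1, 6.23% did not as lower, and 7.12% were on and off. For most of these 5159 the groups therefore overlapped, which a single library can bring about.

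By class, the share past 2-fold fell from 40.4% under 1 TPM to 24.7% and 8.14%, and was 11.4% from 100 to 1000 TPM and 14.7% at 1000 TPM and over. The low classes were even in direction, with 812 higher and 810 lower under 1 TPM and 1332 higher and 1350 lower from 1 to 10 TPM. The higher classes leaned to lower values at day 1, with 240 higher and 454 lower from 10 to 100 TPM, 35 and 109 from 100 to 1000, and 1 and 16 at 1000 and over. For the 2 highest classes together, the 36 higher and 125 lower became 56 and 114 with library totals and 62 and 103 on log2(TPM + 1). The median difference of the highest class was 0.00 on the log2 scale, so that the lean came from a minority of its transcripts.

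All 3 day 1 libraries lay above all 3 controls in 1677 transcripts (6.77% of those tested) and below them in 1543 (6.23%). In exact permutation such a separation has a p of 0.1, the smallest possible with 3 libraries a group. Many transcripts would thus separate without any difference between the groups, and these counts are a description. The balance depended on the scale: on deposited TPM, 2610 were above and 986 below. Of the transcripts under 1 TPM, 5.33% were above and 6.06% below, and from 10 to 100 TPM 7.84% and 6.69%. At 1000 TPM and over the shares were 3.45% and 11.2%, or 4 and 13 transcripts. Fewer libraries overlap less often by construction, and the total of 3220 became 8449 without day 1 replicate 2, 6840 without control replicate 3, 6108 without day 1 replicate 1 and 5626 without control replicate 2.

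With p-values adjusted by Benjamini-Hochberg, edgeR's test passed 1 transcript through both thresholds as higher at day 1 (0.00404% of those tested) and 0 as lower (0%). Before adjustment, 1895 transcripts (7.66%) had a p under 0.05. Its share was 4.26% under 1 TPM and was 10.1%, 15.2% and 15.5% in the 3 classes from 10 TPM upwards. The smallest adjusted p was 0.125 under 1 TPM, 0.197 from 10 to 100, 0.491 from 100 to 1000 and 0.649 at 1000 TPM and over, from edgeR.

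The number of calls rested on the test and on single libraries. DESeq2, on the same transcripts, called 144 (0.582%), with 73 higher and 71 lower. Of these 144, the groups of 141 did not overlap and 0 were on and off within a group. Over all tested transcripts 6.77% did not overlap as higher, 6.23% did not as lower, and 7.12% were on and off. Of the 144, 56 had at most 3 counts in every library of one group and at least 10 in every library of the other. With only the 6 compared libraries in the fit, edgeR called 0, with 1258 at an unadjusted p under 0.05. Leaving out a library, edgeR called 3, 3 and 10 without control replicates 1, 2 and 3, and 2, 56 and 3 without day 1 replicates 1, 2 and 3.

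The 56 transcripts called without day 1 replicate 2 were 6 higher and 50 lower, and 4027 then had an unadjusted p under 0.05. The lower ones covered all classes, with 6 under 1 TPM, 16 from 1 to 10, 17 from 10 to 100, 10 from 100 to 1000 and 1 of at least 1000 TPM. The 6 higher ones were all under 10 TPM. In day 1 replicate 2 itself, 19 of the 50 were below the lowest control and 3 were below it by more than 2-fold, beside 23.2% and 3.30% of all tested transcripts.

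Each of the 4 transcripts given by identifier passed the filter only through the group where it was present, so it had to differ to be tested with a group at 0. The transcript past both thresholds in the fit of all 12 libraries was ENSRNOT00000107207.1, of 9516 bases. It had 0, 0 and 0 CPM in the controls and 24.6, 11.8 and 23.9 CPM in day 1 replicates 1 to 3. All day 1 libraries were above all controls, and replicate 2 was the lowest of them. With a mean of 20.1 ± 7.2 CPM (SD, n = 3) and a floor of 3 counts in each control, or 0.126 CPM on average, it was at least 158.9-fold higher (edgeR adjusted p = 0.00144). Over 13 alternatives the adjusted p ran from 1.9e-16 with DESeq2 to 0.451 in edgeR with only the 6 compared libraries in the fit. The lowest from edgeR was 0.000801, without day 1 replicate 2. Later libraries had 10.3, 13.8 and 9.61 CPM at day 3 and 10.2, 8.43 and 12.8 CPM at day 14.

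The other transcripts given by identifier did not pass edgeR's adjusted threshold in the fit of all 12 libraries. Each passed in 3 of 13 alternatives, namely DESeq2 with 2 filters and edgeR without day 1 replicate 2. ENSRNOT00000105301.1, of 5822 bases, had 0 CPM in each control and 14.5, 39.0 and 21.1 CPM at day 1. Here day 1 replicate 2 was the highest library, and the groups did not overlap. The mean of 24.9 ± 12.7 CPM was at least 197-fold higher (edgeR adjusted p = 0.112). Over 13 alternatives the adjusted p ran from 1.16e-14 with DESeq2 to 0.56 with the replicate block in edgeR. The lowest from edgeR was 0.0359, without day 1 replicate 2. Day 3 libraries had 52.0, 11.7 and 47.5 CPM and day 14 libraries 35.5, 37.4 and 65.4 CPM.

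ENSRNOT00000077790.2, of 3586 bases, had 25.7, 17.8 and 35.7 CPM in the controls and 0 CPM in each day 1 library. Every control was above every day 1 library, replicate 2 included. The mean of 26.4 ± 8.98 CPM in the controls made day 1 at least 209.8-fold lower (edgeR adjusted p = 0.125). Across 13 alternatives the adjusted p ran from 1.55e-14 with DESeq2 to 0.56 with the replicate block in edgeR. The lowest from edgeR was 0.0464, without day 1 replicate 2. The transcript was at 0 in each day 3 library too, and at 11.6, 3.22 and 5.16 CPM at day 14.

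ENSRNOT00000002152.4, of 7966 bases, had 10.8, 8.99 and 20.4 CPM in the controls and 0 CPM in each day 1 library. The groups did not overlap, and the day 1 libraries were at least 106-fold lower than the control mean of 13.4 ± 6.12 CPM (edgeR adjusted p = 0.125). Here the adjusted p over 13 alternatives ran from 5.96e-12 with DESeq2 to 0.721 with the replicate block in edgeR. The lowest from edgeR was 0.0493, without day 1 replicate 2. At day 3 the transcript had 25.4, 12.3 and 7.47 CPM, and at day 14 it was at 0 in each library. Counts of 0 for such a transcript say nothing of its gene, whose reads may have been assigned to its other transcripts.

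All 4 belong to a wider group of transcripts that were present in one group and near 0 in the other. At most 3 counts in every control and at least 10 in every day 1 library were found for 53 transcripts, and the reverse for 57. They were mostly low, with a median of 1.86 CPM at day 1 for the 53 and 2.89 CPM in the controls for the 57. Both sets were chosen by their counts in these libraries and are a description. Of the 53, 12 had at least 10 counts in every day 3 library and 19 in every day 14 library, while 4 and 8 had at most 3 counts in every library of those days. Of the 57, 13 had at most 3 counts in every day 3 library and 9 in every day 14 library, while 10 had at least 10 counts in every day 3 library and 10 in every day 14 library.

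Each day 1 library was then set against the range of the controls. A further library like the controls would also fall outside the range of 3 libraries in a sizeable share of transcripts. The shares outside the range are thus a description and no measure of change by themselves. Day 1 replicate 1 was above the highest control in 31.0% of tested transcripts and below the lowest in 29.1%. The shares were 24.3% and 23.2% for replicate 2 and 32.9% and 30.3% for replicate 3. Over all tested transcripts, more lay outside the range in replicates 1 and 3 than in replicate 2, in both directions. This order did not hold in each class. At 1000 TPM and over 32, 57 and 58 of the 116 transcripts were below the lowest control in replicates 1 to 3, and from 100 to 1000 TPM 425, 463 and 607 of the 1259. Under 1 TPM 21.4%, 26.2% and 30.9% were above the highest control. Among transcripts of at least 100 TPM replicate 2 was thus below the controls more often than replicate 1, though rarely by more than 2-fold. Replicate 1 was more often above them. The counts above the highest control were 592, 199 and 362 in replicates 1 to 3 from 100 to 1000 TPM, and 56, 17 and 38 at 1000 TPM and over.

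Counting departures of more than 2-fold beyond the range separated the libraries further, and mostly downwards. Replicate 1 was below the range in 2334 transcripts and above it in 711, replicate 2 in 817 and 455, and replicate 3 in 1915 and 1033. Of those below, 955 were below in replicates 1 and 3 and not in replicate 2, while 147 were shared by replicates 1 and 2 alone and 127 by replicates 2 and 3 alone. All 3 libraries were more than 2-fold below the range in 110 transcripts and above it in 101.

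**Figure D2:**
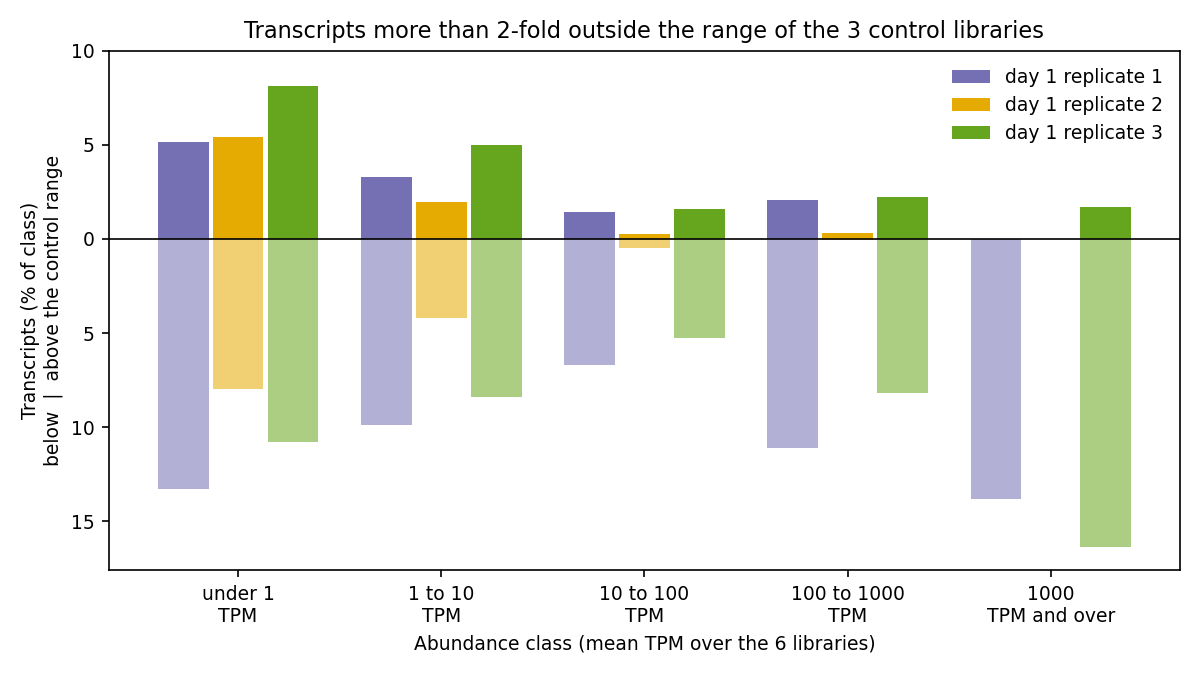
Share of the transcripts of each class of mean TPM (horizontal axis) that were more than 2-fold above (upward bars) or below (downward, paler bars) the range of the 3 controls, in percent of the class (vertical axis), for each day 1 library. At 1000 TPM and over, 13.8% of transcripts were below in replicate 1, 0% in replicate 2 and 16.4% in replicate 3.

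In the low classes replicate 2 departed too. Under 1 TPM it was more than 2-fold below the range in 7.95% of transcripts and above it in 5.41%, beside 13.3% and 5.13% in replicate 1 and 10.8% and 8.12% in replicate 3. From 10 to 100 TPM the share below was 6.70% in replicate 1, 0.504% in replicate 2 and 5.26% in replicate 3. Among the 1375 transcripts of at least 100 TPM, 156 were more than 2-fold below the range in replicate 1, 1 in replicate 2 and 122 in replicate 3. Replicate 2 thus left the control range by more than 2-fold mainly where counts were low.

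Of at least 100 TPM, 105 transcripts were more than 2-fold below in both, which is 67.3% of those below in replicate 1 and 86.1% of those below in replicate 3. Both were set against the same controls, so that some sharing arises from that alone, and the shares are a description. With library totals in place of TMM they numbered 90 and on log2(TPM + 1) 89. Above the range by more than 2-fold, 12 transcripts were shared, of 26 in replicate 1 and 30 in replicate 3, beside 4 in replicate 2.

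The 105 transcripts were chosen by their values in these 2 libraries, and their levels are given as a description. Together they held 13.3%, 9.34% and 9.14% of TPM in the controls and 1.26%, 9.42% and 2.30% in day 1 replicates 1 to 3. Replicates 1 and 3 were far below the controls, and replicate 2 was within their range. The median difference from the control mean was -3.23 on the log2 scale in replicate 1, -0.17 in replicate 2 and -2.53 in replicate 3. The median length was 1991 bases.

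At later times, against the same control libraries, the 105 transcripts held 3.62%, 3.41% and 3.76% of TPM in day 3 replicates 1 to 3 and 5.43%, 7.94% and 12.4% at day 14. The median differences from the control mean were -2.39, -2.47 and -2.38 at day 3. At day 14 they were -1.77, -0.69 and 0.15, and the library of replicate 3 was within the range of the controls in its summed TPM. Single transcripts of the set did not all follow, with differences between -11.71 and 3.83 over the day 3 libraries.

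The 12 transcripts above the range in replicates 1 and 3 were a smaller part of the RNA. They too were chosen by their values in these libraries against the same controls, and their levels are a description. They held 0.0852%, 0.167% and 0.155% of TPM in the controls and 0.754%, 0.306% and 0.847% in day 1 replicates 1 to 3. In this sum replicate 2 was above each control too, with a median difference of 1.02 on the log2 scale beside 2.34 and 2.09 in replicates 1 and 3. The choice of transcripts low in the controls can favour this. At day 3 they held 0.318%, 0.355% and 0.332%, and at day 14 0.459%, 0.524% and 0.184%. The day 14 sums rested on some of the 12, since the median differences from the control mean were 0.55, 1.03 and 0.94 on the log2 scale at day 3 and -0.19, 0.01 and -1.10 at day 14.

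Of the 116 transcripts of at least 1000 TPM, 16 had a mean log2 CPM more than 2-fold lower at day 1. Together they held 9.73%, 6.06% and 6.53% of TPM in the controls and 1.09%, 5.91% and 1.68% at day 1. Replicates 1 and 3 were below every control, and replicate 2 was slightly below the lowest. For 12 of the 16 the groups overlapped and for 4 all day 1 libraries were below the controls (6.23% of all tested, 11.2% of this class). The smallest unadjusted p was 0.00656 and the smallest adjusted p was 0.649, from edgeR. In means of log2 values all 16 were more than 2-fold lower with TMM, RLE, upper-quartile and library-total scaling and on log2(TPM + 1), but plain means of TPM differed by less for some, such as 2622 and 1572 TPM for the transcript of rank 42.

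The transcript of rank 5 by mean TPM, of 656 bases, had 28977, 19624 and 15257 TPM in the controls and 3125, 16776 and 6643 TPM at day 1. Replicates 1 and 3 were below all controls, while replicate 2 was above control replicate 3, and the fitted log2 fold change was -1.44 (edgeR adjusted p = 0.649). At day 3 it had 5763, 13515 and 7685 TPM and at day 14 15828, 21070 and 27014 TPM, so that all day 14 libraries were within the control range.

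Rank 18, a transcript of 706 bases, had 7883, 6266 and 5818 TPM in the controls and 532, 5712 and 871 TPM at day 1. All day 1 libraries were below the controls, replicate 2 by little, and the fitted log2 fold change was -1.62 (edgeR adjusted p = 0.694). It had 522, 223 and 404 TPM at day 3 and 971, 3299 and 7891 TPM at day 14. Each day 3 library was thus near day 1 replicates 1 and 3, and the day 14 libraries were spread from there to the level of the controls.

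Rank 94, a transcript of 1648 bases, had the largest difference in mean log2 CPM of the 16, with 2721, 1557 and 1213 TPM in the controls and 39.8, 1639 and 164 TPM at day 1. Replicate 2 lay among the controls, and the difference in mean log2 CPM of -3.14 came from the other day 1 libraries (fitted log2 fold change -1.72, edgeR adjusted p = 0.731). Day 3 libraries had 71.9, 28.0 and 51.2 TPM and day 14 libraries 162, 474 and 1099 TPM.

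Rank 20, of 3327 bases, was among the 4 of the 16 whose groups did not overlap. It had 7536, 3013 and 7101 TPM in the controls and 268, 2920 and 949 TPM at day 1 (fitted log2 fold change -2.24, edgeR adjusted p = 0.654). Day 1 replicate 2 was just below control replicate 2, and the other day 1 libraries were far below. At day 14 its levels were 51.0, 406 and 851 TPM, all under the lowest control.

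The transcript of rank 19, of 391 bases, had another pattern, with 10239, 1860 and 5367 TPM in the controls and 2470, 1404 and 1406 TPM at day 1. All 3 day 1 libraries were low, but so was control replicate 2, and the groups overlapped (fitted log2 fold change -1.94, edgeR adjusted p = 0.649). At day 14 it had 110, 126 and 102 TPM. The transcript of rank 92, of 390 bases, had 3129, 492 and 1933 TPM in the controls and 754, 552 and 511 TPM at day 1, again with control replicate 2 at the level of the day 1 libraries.

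One transcript of this class had a mean log2 CPM more than 2-fold higher at day 1. It was of rank 35 and 1322 bases, with 530, 1586 and 1954 TPM in the controls and 3217, 1923 and 5397 TPM at day 1. Replicates 1 and 3 were above all controls and replicate 2 was not, and the fitted log2 fold change was 1.22 (edgeR adjusted p = 0.649). It had between 2485 and 2872 TPM at day 3 and between 2856 and 6238 TPM at day 14.

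**Figure D3:**
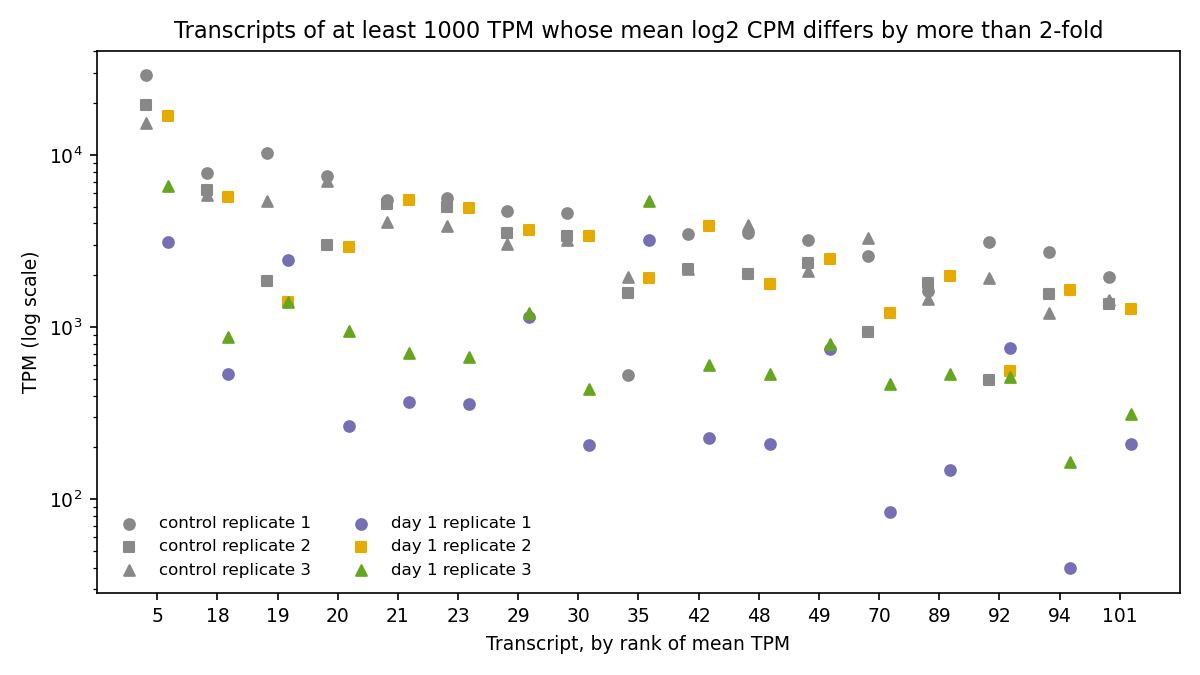
TPM on a log axis in each of the 6 libraries (points) for the 17 transcripts of at least 1000 TPM whose mean log2 CPM differed by more than 2-fold between the groups, ordered by rank of mean TPM (horizontal axis). For most of the 16 lower ones day 1 replicates 1 and 3 lie far below the controls while replicate 2 lies with them.

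Of the 12 with the highest mean TPM, 11 had a lower fitted level at day 1. In 8, all day 1 libraries were below all controls in CPM, beside 6.23% of all tested transcripts and 11.2% of their class. On TPM this was so for 6 of the 12. Of the 12, 0 passed edgeR's adjusted threshold and 6 had an unadjusted p under 0.05 in edgeR (7.66% of all tested, 15.5% of their class). Whether the 12 vary independently of each other was not tested, so these counts are a description. Together they held 19.0% ± 2.0 of TPM in the controls and 14.8% ± 1.51 at day 1 (SD, n = 3). The 12 include rank 5, described above, whose groups overlapped.

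The transcript of rank 2, of 681 bases, had 25543, 28839 and 23492 TPM in the controls and 20983, 21868 and 19125 TPM at day 1. That of rank 3, of 1545 bases, had 22839, 25693 and 22337 TPM in the controls and 17216, 20229 and 17143 TPM at day 1. In both, every day 1 library was below every control, and replicate 2 was the closest of the day 1 libraries. An opposite order was seen at rank 16, of 915 bases, with 3655, 4074 and 3314 TPM in the controls and 6151, 5826 and 6229 TPM at day 1.

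Transcript length moved with single libraries. Among transcripts of at least 4000 bases the median difference from the control mean was -0.07, -0.02 and 0.13 on the log2 scale in control replicates 1 to 3 and 0.03, 0.12 and 0.26 in day 1 replicates 1 to 3. Under 500 bases it was 0.08, 0.03 and -0.07 in the controls and 0.07, -0.16 and -0.17 at day 1. Day 1 replicates 2 and 3 and control replicate 3 were thus higher in long transcripts and lower in short ones, while day 1 replicate 1 was not. Of the transcripts of at least 4000 bases, 6.95% were above all controls and 5.08% below them, and under 500 bases 4.17% and 9.23%. The part of length in the counts above was not tested.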

How the data were processed

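RNA was isolated with a lipid tissue kit, polyA selected and sequenced from directional libraries. Transcripts were quantified by the authors with Salmon (version not given in the sources used here) after FastQC 0.11.3, and the deposited estimated counts are not normalized. The deposited TPM values sum to the same total in every library and served for abundance. The labels and the study's methods name different rat genome builds, and no coordinates were used.

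Estimated counts were rounded and tested in R 4.3.3 with edgeR 4.0.16 (TMM, robust glmQLFit, glmQLFTest, Benjamini-Hochberg), the 12 libraries of 4 groups in 1 fit. The filter was at least 10 counts in 3 of the 6 libraries. The 1743 transcripts with exactly 3 such libraries had a median of 0.518 TPM, and the 1987 with exactly 2, not tested, 0.343 TPM. DESeq2 1.42.0, other normalizations, filters, prior counts and distances, a replicate block and leaving out each library were alternatives. The script was tested on simulated counts with the same dispersion for every transcript and no library unlike its group. This checks the code and not how the tests behave on these libraries.

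Identifiers were printed for at most 2 transcripts per direction, those with the smallest edgeR p among called transcripts whose groups did not overlap, filled up from uncalled ones with a mean of at least 1 CPM. Other transcripts were chosen as examples after their values were seen. The members and lists were chosen with earlier results of these data known. Total counts were between 20466915 and 26559350 per library, and 3 libraries per group limit the precision. Counts of no pair within a group agreed within sampling noise.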

Additional observations from a re-analysis of the deposited data

How the results depend on the processing

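The number of transcripts past edgeR's thresholds was 1. It was also 1 with RLE or upper-quartile normalization, with no fold threshold and with no filter beyond 1 count. It was 0 with at least 10 counts in each of the 6 libraries (1762 at an unadjusted p under 0.05 in edgeR), a filter that removes the called transcript by construction. With only the 6 compared libraries (1258) and with the replicate block (1588) it was also 0. DESeq2 with size factors called 144 in the tested set. DESeq2 called 404 with edgeR's own filter over the 12 libraries, an alternative chosen after seeing the data; 214 of them had at least 10 counts in fewer than 3 of the 6 libraries and 144 were also called in the tested set. Leaving out 1 library gave between 2 and 56 calls. Same-numbered libraries correlated by 0.05, 0.01 and 0.21 in their deviations from the group means, which gives no support for pairing by number and does not settle it. With the block edgeR's adjusted p of ENSRNOT00000107207.1 was 0.0583 (1.9e-16 from DESeq2 to 0.451 from edgeR over 13 alternatives).

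The mean distance of 1.73 between day 1 and control libraries became 0.87 with at least 10 counts in each library, 2.19 with a prior count of 0.5, 1.44 with a prior count of 5, 5.51 over the 500 most variable transcripts and 0.113 as 1 minus Spearman's correlation. Without transcripts on and off within a group, chosen after seeing the data, it was 1.34. These are other scales or other sets of transcripts by construction. Relative to pairs of controls the distance was 1.06 times. It was 1.22 times with at least 10 counts in each library and 1.23 times as 1 minus Spearman's correlation. The median absolute difference of 0.50 moved by less than its spread under all 14 alternatives.

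Transcripts whose groups did not overlap numbered 3220, and between 4395 and 8449 with 1 library left out. Precision is limited by 3 libraries per group.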
